A study of Caenorhabditis elegans with 2 samples.

Results

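The genes described here encode the splicing machinery of Caenorhabditis elegans. They are the protein-coding genes whose symbol before the hyphen is snr, snrp, prp, rsp, uaf, sftb, sfa or lsm, and 46 of the 19973 nuclear protein-coding genes met that rule. The rule used symbols and no measured value. Binding at these genes was mapped by ChIP-seq for LSY-2, a transcription factor with C2H2 zinc fingers that is known for its part in making the left and right ASE taste neurons differ. The material was L2 larvae, whole and with males and females pooled, of strain OP240. This strain carries the unc-119(ed3) III allele and the integrated transgene wgIs240, which expresses LSY-2 tagged with eGFP, and the labels name lsy-2 as the target of the antibody. No source used here gives the promoter that drives the transgene, and the control library was not analysed here. All libraries form 1 group of 2 biological replicates, so no comparison between conditions was possible. Because whole larvae were used, the lists do not show in which cells a region was bound.

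Introns are removed by the spliceosome, which is built on small nuclear RNAs packed with proteins into snRNPs. A ring of Sm proteins surrounds the U1, U2, U4 and U5 RNAs, a related LSm ring binds U6, and SR proteins, rich in arginine and serine, help to recognise exons and splice sites. In C. elegans the same machinery also joins a spliced leader to the start of many transcripts, so an annotated 5′ end is often not where transcription begins.

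A summit is the position of highest enrichment in a region, and it was assigned to a gene when it lay from 1000 bp upstream to 200 bp downstream of the annotated 5′ end. The authors' list thresholded on the irreproducible discovery rate, a measure of agreement between replicates, held 2182 regions. Signal is the authors' value for a region, in the caller's units, and ranks run from the region of highest signal downwards. The signals of both replicates were not matched in scale, the lists hold no read counts, and the depth is therefore unknown. Of the 46 splicing genes, 26 (56.5%) had a thresholded summit in the window, where 9.85% of all nuclear protein-coding genes had one. These 26 genes rested on 24 distinct strongest regions, since rsp-1 with rsp-2 and rsp-5 with snr-3 shared theirs.

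Strong splicing regions whose surroundings hold no annotated exon are shown with the summit base and 50 bases to each side of it, because they are among the regions of highest signal of the group. They are written 5′ to 3′ on the strand of the named gene, from the RefSeq copy of the ce11 (WBcel235) assembly. Capitals mark GACGCA or ACGCAG on either strand, which are 6-base words frequent at other LSY-2 regions.
rsp-6, chrIV:7791358-7791458, minus strand: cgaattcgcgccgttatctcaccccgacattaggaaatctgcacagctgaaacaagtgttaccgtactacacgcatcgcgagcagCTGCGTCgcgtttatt
rsp-5 and snr-3, chrII:6489944-6490044, plus strand of rsp-5: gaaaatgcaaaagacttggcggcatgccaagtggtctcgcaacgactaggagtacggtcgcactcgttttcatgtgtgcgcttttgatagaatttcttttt
prp-8, chrIII:8164013-8164113, plus strand: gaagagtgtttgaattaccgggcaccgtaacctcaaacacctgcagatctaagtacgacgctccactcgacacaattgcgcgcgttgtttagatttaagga
prp-40, chrIII:9521850-9521950, plus strand: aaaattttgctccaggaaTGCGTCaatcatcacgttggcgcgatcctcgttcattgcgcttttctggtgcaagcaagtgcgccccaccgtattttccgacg
snrp-3, chrIV:8687921-8688021, minus strand: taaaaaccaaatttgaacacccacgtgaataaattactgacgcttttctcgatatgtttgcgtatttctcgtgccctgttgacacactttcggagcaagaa
Of the windows shown, those of rsp-6 and prp-40 held a capitalised word and those of rsp-5 with snr-3, prp-8 and snrp-3 held none.

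Across roles, the Sm core and the SR proteins had the most summits. Of the 7 Sm core genes 6 had one, and of the 8 SR protein genes 7 had one. The LSm genes had 4 of 7 and the genes of U1 proteins 2 of 3. Lower counts were found for the U2 and 3′ splice site genes, with 3 of 8, for the U4/U6 and U5 genes, with 3 of 10, and for the genes of activation and the second step, with 1 of 3. The differences between roles were not tested, and each role holds few genes. The gene's own 5′ end was nearest to the summit for 2 of the 6 Sm core genes, 5 of the 7 SR protein genes and 1 of the 4 LSm genes. It was nearest for 2 of the 2 U1 genes, 3 of the 3 U4/U6 and U5 genes, and 0 genes of the other roles. Of all 1968 genes with a thresholded summit, 1385 were nearest to such a summit. The region shared by rsp-5 and snr-3 counts for both the SR proteins and the Sm core. By symbol, all 3 sftb genes had a summit, whereas neither uaf gene nor sfa-1 did.

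**Figure D1:**
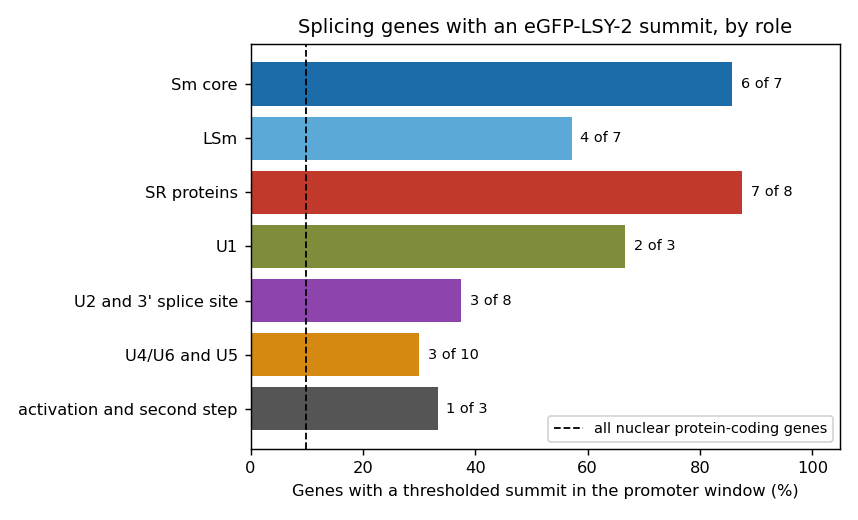
Share of the genes of each role, in percent, with a thresholded eGFP-LSY-2 summit in the promoter window; labels give the counts and the dashed line marks the 9.85% of all nuclear protein-coding genes. Every role lies above the line, from 3 of 10 genes for U4/U6 and U5 to 7 of 8 for SR proteins.

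Among the Sm core genes, snr-3 (WBGene00004916), which encodes SmD1, had the highest signal. Its region on chromosome II, 6489837 to 6490125, had a signal of 345 in replicate 1, 249 in replicate 2 and 595 for both together, rank 88 of the thresholded list. The summit lay 233 bp upstream of snr-3 and 171 bp upstream of rsp-5 on the other strand, so this region counts for both genes. For snr-6, encoding SmE, the signals at chromosome III, 12429767 to 12430035, were 296 in replicate 1, 220.3 in replicate 2 and 519 together, with the summit 272 bp upstream of snr-6 and 608 bp upstream of Y49E10.16.

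The other Sm core genes had lower signals. At snr-4, encoding SmD2 (chromosome V, 11979959 to 11980152), the signals were 141.5 and 84.0 in replicates 1 and 2 and 224.5 together. It was the only splicing gene with a second thresholded region, of signal 100.7, whose summit lay 562 bp upstream, against 357 bp for the first. The first summit was 38 bp from the snRNA gene T11F9.15 and inside the noncoding RNA gene C52E4.14, so its assignment to snr-4 is uncertain. At snr-7, encoding SmG (chromosome I, 2726643 to 2726824), the signals were 112.4, 101.6 and 215.8. That summit lay 288 bp upstream of snr-7 but only 2 bp from the 5′ end of Y71F9B.6 on the other strand.

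The weakest Sm core regions were those of snr-1, encoding SmD3, and snr-2, encoding SmB. At snr-1 (chromosome IV, 17087449 to 17087812) the signals were 39.2 and 39.1 in the replicates and 78.4 together. At snr-2 (chromosome I, 13338834 to 13339197) they were 41.7, 20.1 and 70.2, and the region ranked 2312 in replicate 2, outside the 2182 highest. Both lay nearer another gene, 193 bp from snx-13 and 85 bp from W08E3.4. The remaining Sm core gene, snr-5, which encodes SmF, had no thresholded summit, but its window held listed summits of low signal. The strongest had 15.4 in replicate 1, at 218 bp upstream, and 12.7 in replicate 2, at a different position 495 bp upstream.

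The LSm regions were weaker than most Sm core regions, with a median signal over both replicates together of 78.4 against 220.1, a difference that was not tested. The highest was that of lsm-1, a subunit of the cytoplasmic ring that acts in mRNA decay (chromosome II, 11126533 to 11126683). Its signals were 82.9 in replicate 1, 84.9 in replicate 2 and 165.5 together. The summit lay 337 bp upstream of lsm-1 and 251 bp upstream of rps-9, a ribosomal protein gene on the other strand. The subunits shared by both rings followed. At lsm-7 (chromosome IV, 10933070 to 10933433) the signals were 49.2, 29.6 and 79.6, with the summit 250 bp upstream and 49 bp from dnc-1. At lsm-3 (chromosome IV, 13386056 to 13386419) they were 40.8, 34.3 and 77.3. The lsm-3 summit was the most distant of all, at 965 bp, and 3 other genes were nearer to it: Y62E10A.23 at 86 bp, mdt-9 at 142 bp and Y62E10A.20 at 147 bp.

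At lsm-6 (chromosome I, 1701059 to 1701422) the replicates were in the opposite order to most regions, with 22.3 in replicate 1 and 35.4 in replicate 2, and 59.4 together. It ranked 3049 in replicate 1, outside the 2182 highest. Its summit lay 120 bp upstream, nearer to lsm-6 than to Y71G12B.13, at 864 bp. No thresholded summit was found at lsm-4, lsm-5 or lsm-8, of which lsm-8 defines the nuclear ring on U6.

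The SR protein genes held the single strongest splicing region, that of rsp-6 (WBGene00004703; chromosome IV, 7791253 to 7791545). Its signals were 349 in replicate 1, 245 in replicate 2 and 596 together, rank 86. The summit lay 179 bp upstream of rsp-6, and no other protein-coding gene shared it. The region of rsp-5, already described for snr-3, ranked 2 places lower at almost the same signal. The neighbours rsp-1 and rsp-2 are transcribed away from each other around 1 region (chromosome II, 11453118 to 11453254) with signals of 119.4, 82.0 and 201.9. Its summit lay 153 bp upstream of rsp-1 and 254 bp upstream of rsp-2.

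The other 3 SR regions were below 100 together. At rsp-7 (chromosome II, 10658742 to 10659105) the signals were 57.7, 37.2 and 94.4. The summit lay 282 bp upstream of rsp-7 and 298 bp upstream of snu-13, which encodes another spliceosomal protein, and within the noncoding RNA gene M28.13. At rsp-3, the homologue of the human splicing factor SF2/ASF (chromosome III, 12688001 to 12688364), they were 58.9, 28.3 and 84.9, with the summit 261 bp upstream and 135 bp from spin-4. At rsp-8 (chromosome III, 11825677 to 11826040) they were 33.2, 36.9 and 67.5, with the summit 559 bp upstream and no other gene in reach. The gene of the SC35 homologue, rsp-4, had no thresholded summit and was listed only in replicate 2, at a signal of 7.17.

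Of the U1 protein genes, snrp-3 and prp-40 had regions of closely similar signal. At snrp-3, which encodes U1-C (chromosome IV, 8687867 to 8688060), the signals were 135.4 in replicate 1, 88.0 in replicate 2 and 221.6 together. At prp-40, which encodes a U1-associated factor (chromosome III, 9521821 to 9521987), they were 122.7, 106.5 and 230.2. The order of the 2 genes differed between the replicates. The summits lay 161 bp and 175 bp upstream, in each case nearest to the splicing gene; the prp-40 summit was also 440 bp upstream of clu-1. The gene of another U1-associated factor, prp-39, had no thresholded summit.

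In the U2 and 3′ splice site group, summits were found at the 3 sftb genes, which encode subunits of SF3b, the complex that holds the branch point. The genes of other SF3b subunits on the list of further pathway genes, sap-49, teg-4 and phf-5, had no thresholded summit. At sftb-1 (chromosome III, 4269558 to 4269921) the signals were 85.9, 64.1 and 149.5. At sftb-6 (chromosome II, 97969 to 98332) they were 49.5, 41.8 and 87.3. At sftb-2 (chromosome V, 127912 to 128275) they were 31.98, 20.4 and 52.8, the lowest of the 26 genes, and the region ranked 2258 in replicate 2. All 3 summits lay nearer another gene: 3 bp from R10E4.1 at sftb-1, 124 bp from luc-7L3 at sftb-6 (also 987 bp from C50D2.10) and 60 bp from W03F9.2 at sftb-2. No thresholded summit was found at prp-9 and prp-21, which encode SF3a subunits, at uaf-1 and uaf-2, which encode the U2AF subunits that read the 3′ splice site, or at sfa-1, which encodes the branch point protein SF1.

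In the U4/U6 and U5 group, prp-8 (WBGene00004187) stood far above the others. It encodes the protein at the catalytic centre of the spliceosome, and its region (chromosome III, 8163895 to 8164200) had signals of 310.0, 263 and 568. The summit lay 310 bp upstream of prp-8 and 680 bp upstream of bath-42. At prp-31, encoding a U4/U6 protein (chromosome I, 5127624 to 5127729), the signals were 87.1, 88.0 and 177.8, with the summit 150 bp upstream of prp-31 and 477 bp upstream of mat-1. At snrp-40.1, encoding a U5 protein (chromosome X, 11299609 to 11299972), they were 34.4, 29.1 and 66.9, and the summit was the closest of all, 7 bp upstream, with F08G12.3 at 466 bp. The 7 genes of this group with no thresholded summit were prp-3, prp-4, prp-6, prp-38, snrp-27, snrp-40.2 and snrp-200, the last encoding the Brr2 helicase.

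For activation and the second step, prp-19, which encodes a ubiquitin ligase of the active spliceosome, had a region (chromosome III, 5172615 to 5172761) with signals of 120.5, 73.3 and 201.3. Its summit lay 634 bp upstream of prp-19 but 41 bp from K10D2.5, and emb-1 lay 760 bp away. Neither prp-17 nor prp-18, which act in the second step, had a thresholded summit.

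**Figure D2:**
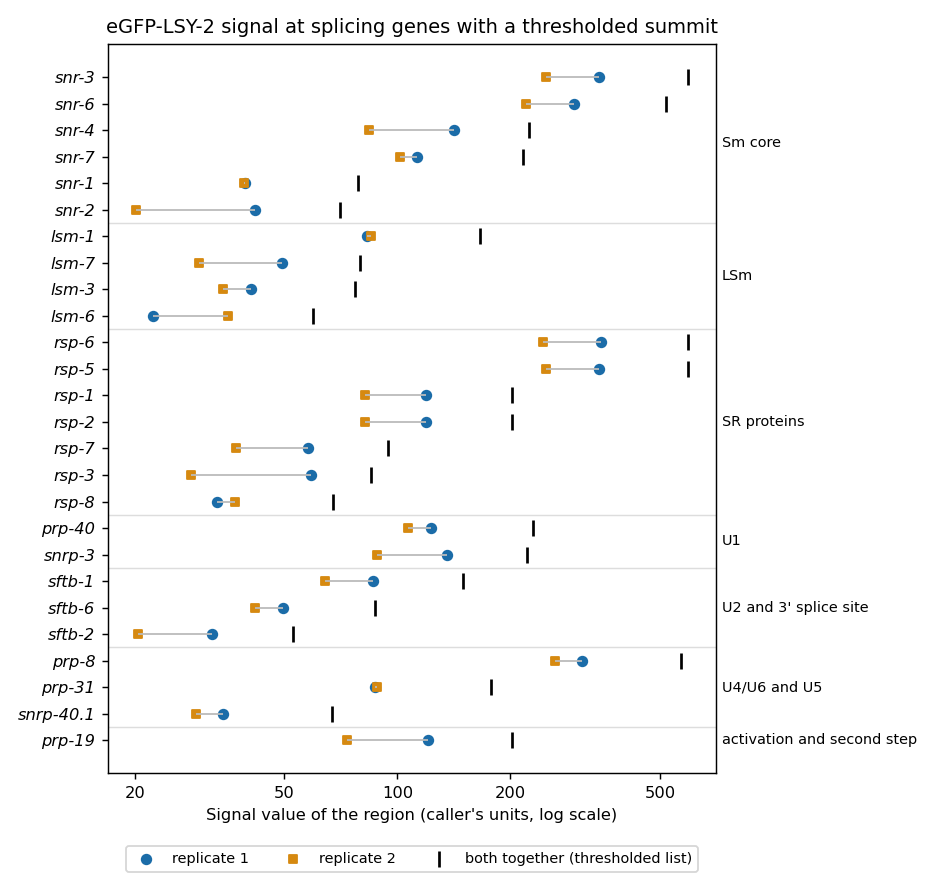
Signal of the strongest thresholded region at each of the 26 splicing genes with a summit, on a log scale in the caller's units, with circles for replicate 1, squares for replicate 2 and bars for both together. The regions of rsp-6, rsp-5 with snr-3, prp-8 and snr-6 stand above the rest, from 519 to 596 together.

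The median signal was higher than over all genes with a thresholded summit, a difference that was not tested. The median over the 26 genes was 171.6, against 99.8 over all genes with a thresholded summit. Of the 26 splicing genes with a summit, 18 held one of the upper 50% of thresholded regions by signal, as did 1178 of all 1968 genes with a summit. Counting genes with and without a summit, these were 39.1% of the splicing genes and 5.90% of all genes. The signals did not reach the top of the list, since the highest region of all had 6690. All 25 regions in the windows of splicing genes shared the highest −log10 q-value of the authors, 3.63, which therefore does not separate them.

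Signals in the replicates were compared over these regions. The thresholded list was made from these same replicates, but which comparison set its threshold was not established here. Of its 2182 regions, 2154 had a summit in both replicates. Some of these had replicate 2 signals below 8.67, the median of the full replicate 2 list. Similar signals in the replicates may still be partly fixed by the selection, so the values only describe the regions kept. Across the 24 regions, which share their libraries, the log10 signals gave a Pearson's r of 0.942 and a Spearman's rho of 0.865. The ratio of replicate 1 to replicate 2 had a median of 1.34, against 1.43 over the 2154 thresholded regions found in both. It ran from 0.630 at lsm-6 to 2.09 at rsp-3, and was below 1 in 4 regions, those of lsm-1, lsm-6, prp-31 and rsp-8. The SD of its log2 was 0.39 at splicing genes and 0.55 over all regions. Summits of single replicates lay a median of 6 bp (replicate 1) and 4.5 bp (replicate 2) from the thresholded summit.

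**Figure D3:**
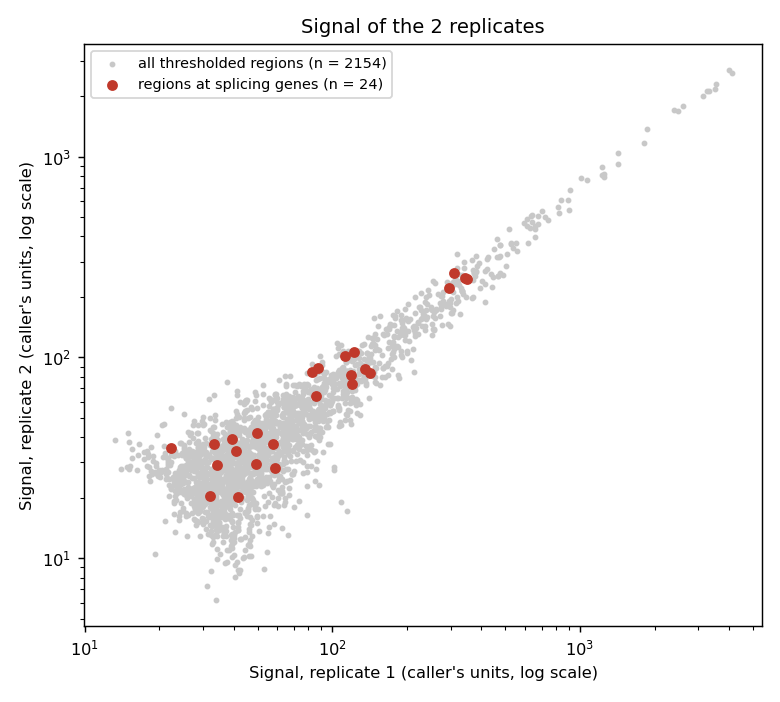
Signal in replicate 1 against replicate 2, both on log axes in the caller's units, for 2154 thresholded regions (grey) and the 24 strongest regions at splicing genes (red). The red points spread along the cloud from its lower part upwards without reaching its highest signals, with a ratio of replicate 1 to replicate 2 of 0.630 to 2.09.

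Taking in each replicate the 2182 regions of highest signal, 23 splicing genes (50%) had a summit in both replicates, where 8.09% of all genes did. The genes with a thresholded summit that fell out were lsm-6 in replicate 1, and sftb-2 and snr-2 in replicate 2. The full lists of 30000 regions a replicate, which mix peaks and background, held a summit in both replicates for 36 splicing genes (78.3%), where 26.0% of all genes had one. They held none in either replicate for 4 splicing genes (8.70%), where 48.0% of all genes had none. Those 4 were prp-3, prp-17, snrp-200 and uaf-1.

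Shares over all genes with no thresholded summit were not computed, so the counts that follow are not set against such a share. Of the 20 genes with no thresholded summit, 10 had listed summits of low signal in both replicates, not always at the same position. These were lsm-4, lsm-5, lsm-8, prp-4, prp-6, prp-18, prp-21, snr-5, snrp-27 and snrp-40.2. Their signals ran from 11.4 to 25.7 in replicate 1 and from 7.39 to 13.4 in replicate 2. The medians of the full lists were 11.13 and 8.67. In replicate 1 they overlapped the lowest genes with a thresholded summit, since lsm-5 at 25.7 exceeded lsm-6 at 22.3. In replicate 2 these 10 genes did not overlap them, as the lowest gene with a thresholded summit had 20.1. However, prp-9, listed in replicate 2 only, exceeded that value at 27.7. The thresholded list was made from these same replicates, so such a gap may be partly fixed in advance. None of the 20 ranked within the first 5000 regions of both replicates. The others were listed in 1 replicate only: prp-39 in replicate 1, and prp-9, prp-38, rsp-4, sfa-1 and uaf-2 in replicate 2. Among these, prp-9 and uaf-2 had the highest signals, 27.7 (rank 1496, 157 bp upstream) and 17.7 (rank 2850, 198 bp upstream); both were named after their values were seen.

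All 26 summits lay between annotated protein-coding genes, and 0 lay in an exon or an intron. Over all thresholded regions 75.3% of summits lay between genes, 5.96% in exons and 18.7% in introns. Because summits were assigned by a window around the 5′ end, this position is partly fixed by the choice of window. The median distance was 257.5 bp upstream, against 225 bp over all genes with a summit, and 22 of the 26 lay from 100 to 500 bp upstream.

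Most of these summits were shared. For 22 of the 26 genes the summit also lay in the window of another protein-coding gene, for 21 of them on the other strand. Over all 1968 genes with a thresholded summit, 58.2% shared it with another gene and 55.1% with one on the other strand; the difference was not tested. The 4 genes alone with their summit were rsp-6, rsp-8, snr-4 and snrp-3. The splicing gene was nearest to the summit among all genes whose window held it for 13 of these 26 genes. Of the 1968 genes with a thresholded summit, 1385 were nearest to such a summit, a higher share, and the difference was not tested. Counting genes with and without a summit, the shares were 28.3% of the splicing genes and 6.93% of all genes. The 13 splicing genes nearest to their summit included rsp-6, rsp-5, prp-8, snr-6, prp-40 and snrp-3. For the other 13, among them lsm-1, snr-7, sftb-1 and prp-19, another 5′ end was nearer, and which gene such a region serves was not tested.

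**Figure D4:**
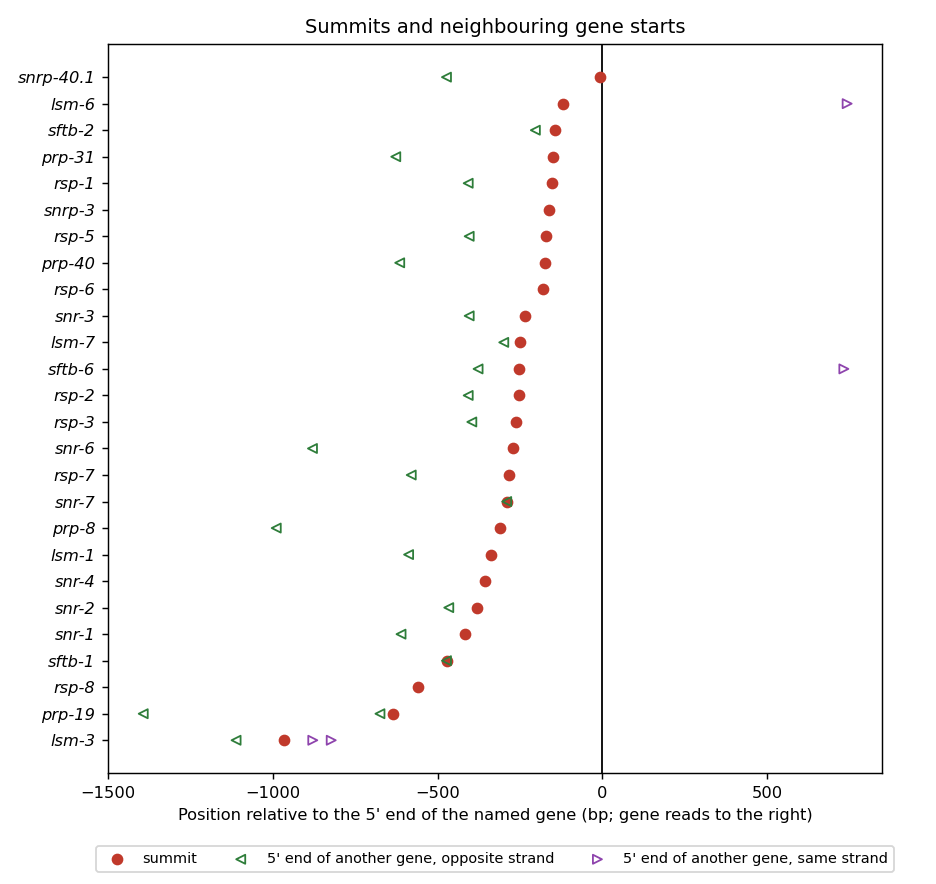
Position in bp of the strongest thresholded summit (dots) relative to the 5′ end of each splicing gene, drawn so that the gene reads to the right, with triangles for the 5′ ends of other genes whose window holds the same summit. Most summits lie 100 to 500 bp upstream, and 22 of the 26 rows hold at least 1 triangle.

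Some splicing genes lay close behind another gene on the same strand. C. elegans transcribes many such genes together from 1 upstream promoter as operons. Operon annotation was not used here, so the description rests on gene order alone, with a gap of at most 500 bp. Of 13 splicing genes with such a neighbour, 4 (30.8%) had a thresholded summit, where 7.06% of all such genes did. Of 33 without, 22 (66.7%) had one, where 10.5% of all such genes did.

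Among the 4 genes in runs with a summit, lsm-3 shared its region with the first gene of its run, Y62E10A.23. The first gene of the lsm-6 run, ubc-3, also had a summit (signal 74.3), while those of the rsp-6 and snrp-3 runs had none. Where the splicing gene had no summit of its own, the first gene of the run mostly had one. Of the 9 splicing genes in such a run with no summit of their own, 7 (77.8%) stood in a run whose first gene had a thresholded summit, where 20.9% of all such genes did. The gene lsm-8 lay 103 bp behind sqd-1, whose summit had a signal of 842.5, above that of any of the 46 splicing genes. The gene prp-38 lay 106 bp behind plrg-1, which encodes another spliceosomal protein, with a signal of 130.2. The gene prp-39 lay 90 bp behind hmgs-1, with a signal of 203.5. The genes prp-3 and snrp-200, not listed in either replicate, lay 344 bp behind smrd-1 (signal 142.4) and 121 bp behind pisy-1 (signal 59.9). The run of snrp-40.2 began with suco-1 (signal 188.6) and that of snrp-27 with ran-4 (signal 58.7). The exceptions were lsm-5, behind acs-2, and sfa-1, in a run that began with uaf-2. Whether these genes are transcribed from the first promoter was not tested.

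By chromosome, 7 of 10 splicing genes had a summit on chromosome III, where 16.4% of all genes did. On chromosome I it was 4 of 8 against 15.6%, and on IV 5 of 9 against 9.42%. On chromosome V it was 2 of 6 against 5.61%. On chromosome II it was 7 of 12, against 345 of all 3449 genes there. The only splicing gene on X had one, as did 5.49% of all genes there.

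Around the summits, within 50 bp to each side, base composition was close to that of other regions. The GC content was 48.1% over the 24 windows and 46.7% over 2158 other thresholded windows, and it was 36.1% and 35.7% in flanks centred 300 bp away. Words of 6 bases were counted on both strands. GACGCA, with TGCGTC on the other strand, was in 8 of 24 windows (33.3%), against 17.6% of the other thresholded windows and 250 of the 1387 in promoters. The 8 windows included those of lsm-6, lsm-7, prp-40, rsp-1 with rsp-2, rsp-6, rsp-7 and snr-1. ACGCAG, which overlaps GACGCA by 5 bases, was in 3 windows (12.5%) against 17.1%. CGTCTC was in 3 windows (12.5%) against 18.3%.

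GAGAGA, the most frequent of these words at other regions, was found at 1 splicing region. It was in 1 of 24 windows (4.17%), that of sftb-2, against 25.6% of the other thresholded windows, 19.8% of those in promoters and 17.4% of those in promoters in the upper 50% of signal. AGAGAG, which overlaps it, was in 1 window against 22.2%. The word TATAAA was in 3 windows (12.5%) against 4.31%, TTTTTT in 8 (33.3%) against 518 of the 2158, and TTTCAG in 2 (8.33%) against 5.93%. CACGTG was in the snrp-3 window and CCGCCC in the prp-19 window, 1 of 24 each, against 2.78% and 5.75%. With 24 windows, 1 window more or less moves a share by 4.17 percentage points. These shares were not tested, and a match is not evidence of binding to that word.

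Other genes of the pathway were taken from a list of 157 symbols, not all of which matched the annotation. Of those that matched, 45 (39.5%) had a thresholded summit and 69 had none, where 9.85% of all genes had one. The median signal was 105.9. Splicing regulators had 14 of 29, other snRNP and spliceosome genes 25 of 56, and exon junction and export genes 5 of 14. The list of Sm assembly and cap genes, which also holds snpc genes for snRNA transcription and ncbp genes for cap binding, had 1 of 15 (6.67%), a share near that of all genes. That gene was smr-1, with signals of 207 and 156 in the replicates and 363 together. No thresholded summit was found at smn-1, which encodes the SMN protein that assembles Sm rings. The 6 highest signals were those of thoc-7 (1106), spk-1 (790.6), mog-4 (637), smr-1 (363), smu-1 (293) and rbm-25 (242). The signal of mog-4, a helicase gene alone with its summit, exceeded that of rsp-6, at 596. So did that of spk-1, whose product phosphorylates SR proteins, but its summit, 293 bp upstream, was slightly nearer to rheb-1, at 285 bp. The rbm-25 summit, 298 bp upstream, was also nearer to another gene, W04D2.4, at 160 bp. The thoc-7 summit lay 770 bp upstream of that gene but 261 bp from rpl-29, a ribosomal protein gene.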

How the data were processed

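ChIP-seq of eGFP-LSY-2 was deposited for 2 biological replicates. Per the deposited lists of files, the authors called regions on ce11 alignments against a control alignment, for each replicate and for both together, and thresholded them by the irreproducible discovery rate; aligner and caller were not given in the sources used here. Each deposited region has a signal value, the caller's own, of unstated scaling, a −log10 q-value and a summit offset. Regions on ce10 were not used. Replicates were numbered as in the labels. Signals ranked and described regions only, and no p-value was computed; depth is unknown.

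Positions were converted to 1-based coordinates. Gene models came from Ensembl release 115 for WBcel235, without mitochondrial genes. Of the 46 splicing genes, 43 had RefSeq boundaries within 200 bp. A summit was given to every gene whose 5′ end lay within reach of it, with limits of 1000 bp when the summit was upstream and 200 bp when downstream. A run of genes joined same-strand neighbours at gaps of at most 500 bp. Of the 6-base words, 5 (GAGAGA and AGAGAG among them) had the largest differences in share between the other thresholded regions and their flanks. The splicing regions were left out of that search. The remaining words, such as CACGTG, were picked by name, as GAGAGA also was. Genes, lists, roles (from textbook knowledge) and words were chosen with earlier results of these data known, and the rule on runs with the values in view. The text names every splicing gene with a thresholded summit, the genes sharing it and noncoding genes within 200 bp, values of splicing genes without one where a summit was among the first 5000 regions of both replicates, the 6 other pathway genes of highest signal, and sequences of up to 6 regions off exons. One of those sequences is not reported here. Where other values of genes without a summit or of genes at the head of a run are given, they were chosen after the values were seen.

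Alternatives were other windows, nearest 5′ ends, every transcript, the upper 50% of regions, each replicate left out, other list lengths and other word windows. Python 3.11.15, numpy 2.4.6, pandas 2.3.3 and matplotlib 3.10.9 were used. The assignment of summits and the word search were tested on simulated data, and 5 of 5 checks passed.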

Additional observations from a re-analysis of the deposited data

How the results depend on the processing

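The count of 26 splicing genes depends on how a summit is assigned. It fell to 13 with the nearest 5′ end within 5 kb, where 9.50% of all genes had a summit, and to 13 with the nearest among genes whose window held it, where 6.93% did; the count of 45 other pathway genes fell to 29 under the latter. It was 23 in the window of 500 bp upstream and 27 in that of 2000 bp, where 8.11% and 12.6% of all genes had a summit. Taking the top 2182 regions of 1 replicate in place of the thresholded list gave 25 splicing genes without either replicate, and 42 to 45 other pathway genes, where 9.62% of all genes had a summit in either case. Only 15 splicing genes, not 23, were in the top 1000 of both replicates, where 4.67% of all genes were. The median signal of 171.6 was 177.8 in the narrower window; without replicate 1 or 2 it was 82.0 to 87.1, since single replicates have lower signals than both together. Rank correlation gave 0.865 in place of 0.942. Word shares moved with the window around the summit. Within 100 bp GAGAGA was in 16.7% of windows, against 38.7% of other thresholded windows. Within 25 bp GAGAGA was in 0 windows, as was CACGTG and likewise the word CCGCCC (0), the share of TTTTTT was 12.5% and the share of TATAAA was 4.17%. No share over other thresholded windows was computed within 25 bp. A narrower window holds fewer words in any region, so these values describe the splicing windows only. Within 100 bp the share of TTTCAG was 29.2% and that of TTTTTT 66.7%, against 19.4% and 55.9% of other thresholded windows. Runs with gaps of at most 200 bp, which were tried with the values in view, gave 4 of 6 splicing genes behind a first gene with a summit, not 7 of 9, and 27.3% of all such genes, not 20.9%. Gaps of at most 1000 bp gave 7 of 9 against 16.5%. Leaving out a replicate gave 7 of 9 against 19.96% (without replicate 1) and 7 of 10 against 20.7% (without replicate 2). No paired analysis was possible because there is 1 group. With 2 replicates of unmatched scale and no read counts, differences in signal between genes have no test, and shared regions cannot be assigned to 1 gene.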
